A study of Mus musculus with 9 samples.

Results

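The proteasome genes described here are the genes on the Affymetrix U74Av2 mouse array whose only platform symbol begins with Psma, Psmb, Psmc, Psmd, Psme or Psmf. They numbered 42 of the 8251 genes with a probe set of 1 symbol, and they were read by 53 of 10833 such probe sets. The study compared the mouse forebrain after long treatment with a newer and an older antipsychotic drug, 3 arrays per treatment and 1 animal per array. The clozapine mice received 12 mg/kg/day and the haloperidol mice 1.6 mg/kg/day, each drug dissolved in the drinking water for 4 weeks, and the control mice received no drug. All were male C57BL mice with a labelled age of 4 weeks, kept 1 to a cage and given 2 weeks to settle, and the arrays came from 9 of 30 animals, 10 of which were in each treatment. The drugs were given at different doses, so differences between them are differences between these regimens. The sample titles and the series text place the tissue on the right side of the forebrain, whereas the tissue entry names the left hemisphere, and the side is therefore not settled.

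The proteasome is the large protease that degrades proteins tagged with ubiquitin. Its core particle is a barrel whose outer rings are built from alpha subunits (Psma genes) and whose inner rings are built from beta subunits (Psmb genes), some of which cut the substrate. The regulatory particle caps the barrel: a ring of ATPases (Psmc genes) unfolds the substrate and opens the gate, and the other base and lid subunits (most Psmd genes) bind ubiquitin chains and remove them. In neurons the complex sets protein turnover at synapses, and in many cell types the transcription factor NFE2L1 raises the genes of both particles together when proteasome activity falls.

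Of the 42 genes, 17 encode core subunits, 20 encode regulatory subunits or the chaperones Psmd5, Psmd9 and Psmd10 that assemble the base, and 3 encode the activators Psme1, Psme3 and Psme4. The other 2, Psmc3ip, a factor of meiotic recombination, and Psme3ip1, a protein that binds Psme3, match by name but are not subunits and were kept out of the particle values. No probe set carried a Psmf symbol, Adrm1 was not analysed here, and Psme2 was read only by 2 probe sets annotated to Psme2b as well. After removal of probe sets whose 9-array mean log2 value was at or below 3.45, 39 member genes were tested and 3 were not. Psmb9, an inducible catalytic subunit, lay between 2.34 and 2.57 on the 9 arrays and Psmd2, a scaffold of the base, between 1.99 and 2.21, both in the range of probe sets without clear signal. Psmc3ip was the third. The 38 tested genes left after Psme3ip1 comprised 16 core, 19 regulatory and 3 activator genes.

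Promoter sequences of RefSeq, on build GRCm38.p6, were found for 36 of the 42 genes, and 4 genes are shown because the results below turn on them or on the element they carry. Psmd6, Psma6 and Psmd14 had low p-values after haloperidol, and Psmb5, the chymotrypsin-like catalytic subunit, carries a match to the antioxidant response element through which NFE2L1 acts. Each line gives the 250 bases before an annotated start, 5′ to 3′ on the strand of the gene, and capitals mark TGACNNNGC or CCAAT on either strand. Psma6 has 2 annotated starts, both on the plus strand.

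Psmd6, chr14:14120946-14121195, minus strand: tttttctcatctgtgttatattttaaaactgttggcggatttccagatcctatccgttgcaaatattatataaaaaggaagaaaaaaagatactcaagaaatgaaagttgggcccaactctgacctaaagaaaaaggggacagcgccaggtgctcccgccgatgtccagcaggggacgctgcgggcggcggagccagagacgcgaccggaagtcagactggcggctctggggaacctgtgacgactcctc
Psma6, chr12:55383972-55384221, plus strand: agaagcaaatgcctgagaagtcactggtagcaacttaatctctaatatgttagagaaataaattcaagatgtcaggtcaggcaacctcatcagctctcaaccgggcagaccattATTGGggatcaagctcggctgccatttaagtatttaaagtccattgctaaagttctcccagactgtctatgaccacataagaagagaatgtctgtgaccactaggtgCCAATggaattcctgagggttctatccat
Psma6, chr12:55398575-55398824, plus strand: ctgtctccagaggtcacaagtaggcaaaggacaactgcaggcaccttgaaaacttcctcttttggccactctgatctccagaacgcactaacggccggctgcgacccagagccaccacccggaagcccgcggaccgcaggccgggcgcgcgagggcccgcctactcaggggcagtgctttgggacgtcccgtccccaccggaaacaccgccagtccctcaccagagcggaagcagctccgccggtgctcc
Psmd14, chr2:61711444-61711693, plus strand: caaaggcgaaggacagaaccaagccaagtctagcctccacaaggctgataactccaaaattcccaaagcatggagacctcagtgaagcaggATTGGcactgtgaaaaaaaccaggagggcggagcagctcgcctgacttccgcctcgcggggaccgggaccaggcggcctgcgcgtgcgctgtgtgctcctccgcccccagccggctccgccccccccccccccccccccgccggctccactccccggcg
Psmb5, chr14:54617996-54618245, minus strand: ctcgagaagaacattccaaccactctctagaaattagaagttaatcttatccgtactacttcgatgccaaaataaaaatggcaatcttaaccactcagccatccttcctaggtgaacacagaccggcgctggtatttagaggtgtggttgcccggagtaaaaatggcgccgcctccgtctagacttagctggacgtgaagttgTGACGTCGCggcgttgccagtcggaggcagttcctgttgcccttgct

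The antioxidant-type motif TGACNNNGC occurred in the upstream windows of Psmb5 (TGACGTCGC), Psmb6 (TGACGGAGC), Psmc6, Psmd9 and Psmd12. These were 5 of 39 member promoters, or 12.8%, against 10.2% of all 32851 promoters of the same length. In Psmb5 the match ran from 47 to 39 bases before the start, and in Psmb6 from 9 to 1. The CCAAT motif occurred in 15 of the 39 member promoters, or 38.5%, against 33.8% of all promoters, and the Psmd6 window held neither motif. No member window held both motifs, and a match is a string of letters and not a measured binding site.

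The deposited values are log2 GCRMA values, in which 1 unit is a doubling of signal, and the treatments were compared gene by gene with limma, a linear model fitted to all 9 arrays and all 7453 tested probe sets. Neuron markers were present, with Snap25 between 12.82 and 13.26 on every array. Of the 5 tested forebrain neuron markers, Gad1 lay between 12.05 and 12.65, whereas Camk2a ran from 9.42 on clozapine 1 to 3.87 on control 3. Of 6 cerebellar genes Gabra6, Cbln1 and En2 were under the filter, whereas Zic1, Calb2 and Pcp2 averaged 9.86, 7.59 and 7.32. Zic1 and Calb2 are also made by forebrain neurons. The arrays stood apart in ways the treatments do not give. Principal component analysis put 50.1% of the variance on its first axis, which set control 3 (37.5) against clozapine 1 (−17.6), haloperidol 3 (−19.8) and control 1 (−19.6), with the others between 0.48 and 7.0. Control 3 also had the largest 3′ minus 5′ gap of the Actb and Gapdh control probe sets, 1.73 against 0.81 to 1.46 on the other arrays, a measure of RNA integrity. Haloperidol 3 alone carried pituitary transcripts, with growth hormone (Gh) at 12.57 and at most 1.28 elsewhere. The part of these arrays in the results below was not tested beyond leaving them out. In whole tissue, fewer cells of a type and less RNA per cell cannot be told apart.

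Low values behaved differently from high ones after haloperidol. Of the 4969 probe sets under the filter, 88.4% had all 3 haloperidol arrays below all 3 control arrays, and so had all 8 member probe sets under it, among them those of Psmb9 and Psmd2. Above the filter, 19.4% of the tested probe sets lay below the controls in this way and 2.29% lay above them. The lower haloperidol values of dim member probe sets are thus close to this background and are not read as a result about them.

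No proteasome gene passed an adjusted p of 0.05 in any comparison, and nor did any of the 7453 probe sets. Beneath that threshold, the haloperidol mice had higher values than the control mice for 25 of the 38 genes, with a median log2 difference of 0.12 and 46.4% of all tested probe sets above 0. The clozapine mice had higher values than controls for 21 of the 38, with a median of 0.022 and 49.5% of all tested probe sets above 0. The median over all tested probe sets was −0.018 for haloperidol and −0.0013 for clozapine. Of the 38 genes, 23 were among the 1863 brightest tested probe sets, of which 59.4% lay above 0 after haloperidol with a median of 0.041 and 53.7% after clozapine with a median of 0.013. The values of each gene on each array are drawn in the colour map.

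**Figure D1:**
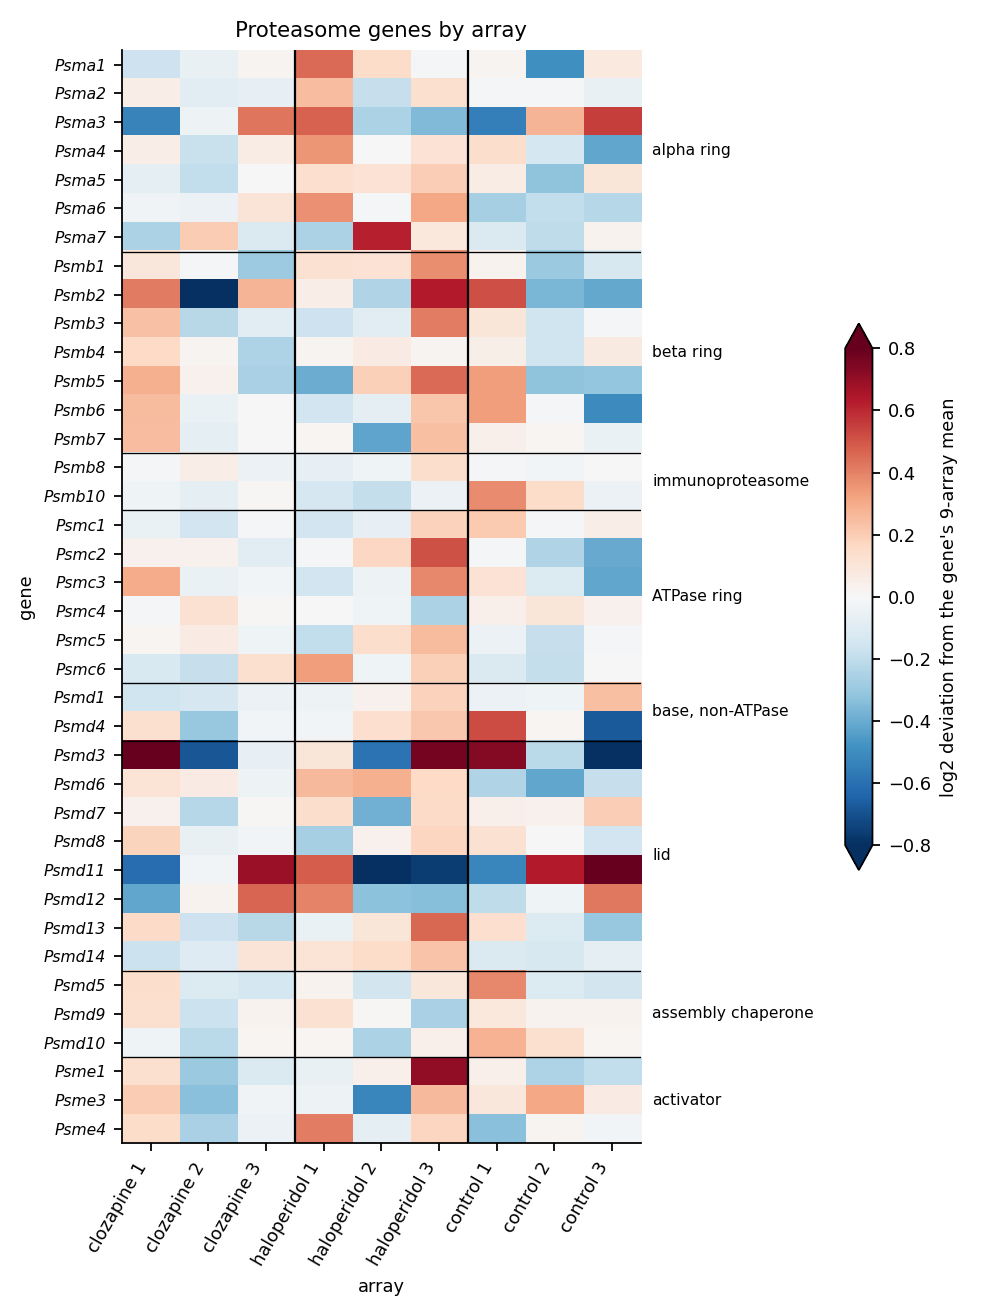
Log2 deviation of each of 38 tested proteasome genes (rows, grouped by role) from its own 9-array mean on each array (columns; vertical lines part clozapine, haloperidol and control). The colour scale ends at 0.8 in either direction; the alpha ring genes are mostly above their mean on haloperidol 1, and Psma3, Psmd11 and Psmd12 show an array pattern opposite to that of Psmb2, Psmd3 and Psmd4.

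At an unadjusted p under 0.05, 5 genes lay higher with haloperidol and 1 lower, where 2.05% of all tested probe sets lay higher and 7.07% lower. Among the brightest probe sets these shares were 3.6% and 1.4%. With clozapine 1 gene lay higher and none lower, where 0.939% of all tested probe sets had such a p: 0.443% of all tested probe sets lay higher and 0.496% lower. Between the drugs no gene lay higher with clozapine and 1 lay lower, where the shares of all tested probe sets were 2.98% and 0.657%. An F test over the 3 treatments gave an unadjusted p under 0.05 for Psma6, Psmd14 and Psmd6, against 3.37% of all tested probe sets, and every adjusted value for these genes rounds to 1.0. The 6 genes with such a p in any comparison are plotted by array.

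**Figure D2:**
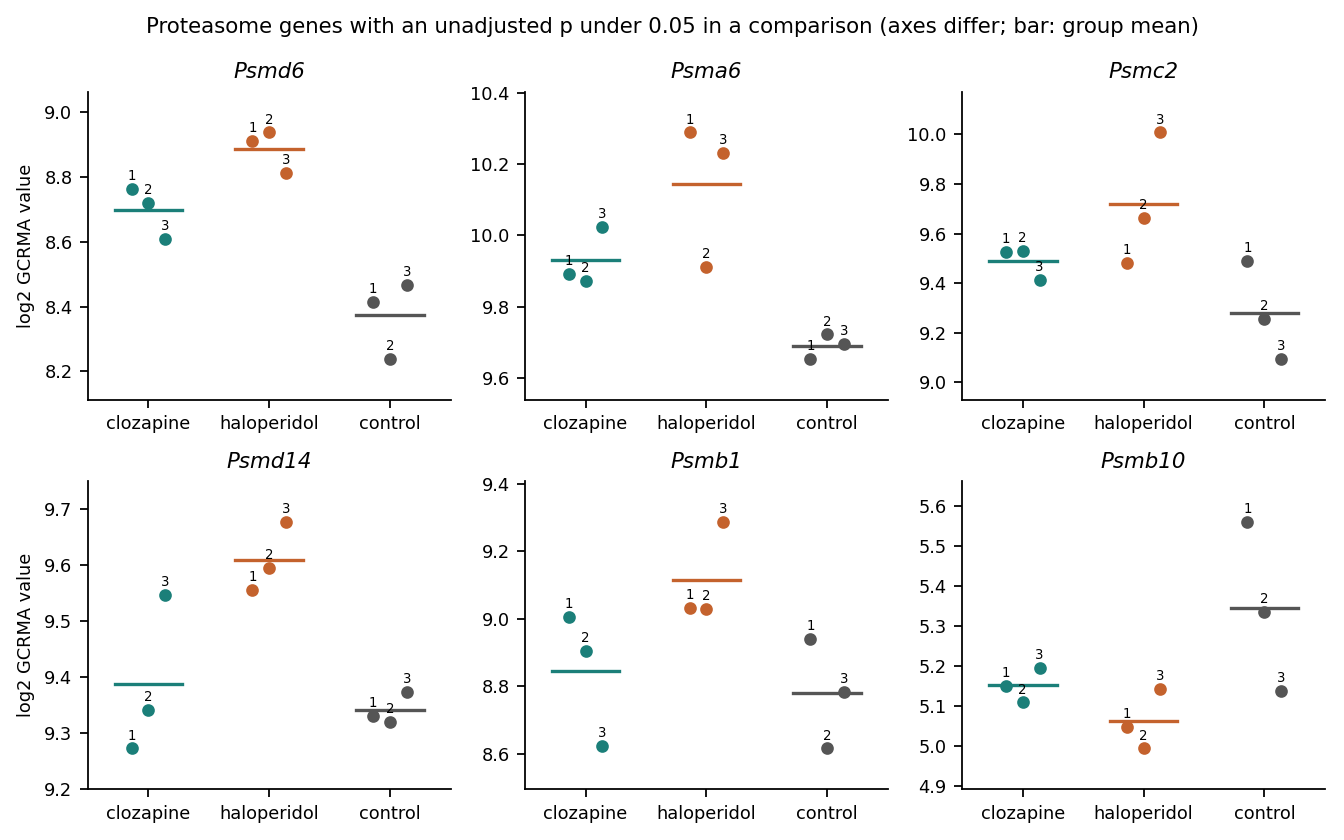
Log2 GCRMA values (vertical axes, which differ between panels) of 6 proteasome genes in clozapine, haloperidol and control mice; each point is 1 array, numbered by replicate, and bars are group means. All 3 haloperidol arrays lie above all 3 controls for Psmd6, Psma6, Psmd14 and Psmb1, and the groups overlap for Psmc2 and Psmb10.

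Psmd6, a lid subunit of the regulatory particle, separated the treatments most. It had log2 values of 8.76, 8.72 and 8.61 in clozapine mice, 8.91, 8.94 and 8.81 in haloperidol mice and 8.41, 8.24 and 8.47 in control mice. All haloperidol values lay above all clozapine values, which in turn lay above all control values. The haloperidol minus control difference was 0.51 ± 0.09 (SE, n = 3 each; 1.43-fold; limma adjusted p = 0.530), with a 95% interval of 0.30 to 0.72. The clozapine minus control difference was 0.32 ± 0.09 (1.25-fold), with an interval of 0.11 to 0.53. All adjusted p-values for clozapine against controls round to 1.0. Leaving out each array in turn kept the haloperidol difference between 0.45 and 0.56 and the clozapine difference between 0.26 and 0.37.

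Psma6, an alpha subunit of the core, was second. Its values were 9.89, 9.87 and 10.02 in clozapine mice, 10.29, 9.91 and 10.23 in haloperidol mice and 9.65, 9.72 and 9.69 in control mice. Both drug groups lay wholly above the controls and overlapped each other, because haloperidol 2 lay among the clozapine values. The haloperidol difference was 0.45 ± 0.11 (1.37-fold; limma adjusted p = 0.530), with an interval of 0.20 to 0.71, and the clozapine difference 0.24 ± 0.11 (1.18-fold), with an interval of −0.02 to 0.50. Psma6 and Psmd6 were the only 2 of the 38 genes whose clozapine arrays all lay above the controls, none lay wholly below them, and the shares were 1.27% and 2.16% of all tested probe sets and 1.83% and 1.61% of the brightest.

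The alpha ring as a whole carried the clearest pattern of the core. With haloperidol 6 of its 7 genes lay above controls, with a median difference of 0.25, and with clozapine 4 of 7, with a median of 0.042. The ring's score, the mean deviation of its genes from their 9-array means, was −0.14, −0.06 and 0.06 on the clozapine arrays, 0.25, 0.06 and 0.07 on the haloperidol arrays and −0.10, −0.16 and 0.01 on the control arrays. The haloperidol arrays lay above those of both other groups, but haloperidol 2 and clozapine 3 were equal to 2 decimals. Leaving out each array in turn gave a haloperidol median of 0.15 to 0.28.

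Among the other alpha subunits, Psma5 had values of 7.70, 7.58 and 7.77 in clozapine mice, 7.91, 7.89 and 7.97 in haloperidol mice and 7.83, 7.45 and 7.87 in control mice. Its haloperidol arrays lay above those of both other groups, by 0.20 ± 0.12 over controls (limma adjusted p = 0.620), and control 2 lay below every other array. Psma1 lay 0.33 ± 0.18 above controls with haloperidol and Psma4 0.30 ± 0.16 (adjusted p = 0.579 for each), both with overlapping groups. Single controls carried much of these differences: without control 2 that of Psma1 came to 0.15 and that of Psma5 to 0.071, and without control 3 that of Psma4 came to 0.16. Psma7 differed by 0.25 ± 0.22, which rested on haloperidol 2 (0.013 without it) at 9.76 beside 8.88 and 9.22 on the other haloperidol arrays and 8.93 to 9.16 in controls. Psma2 differed by 0.094, and Psma3 was the only alpha gene below controls with haloperidol, at −0.14 ± 0.36.

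The beta ring was less uniform. With haloperidol 6 of 7 genes lay above controls, but the median was only 0.075, and with clozapine 5 of 7 did, with a median of 0.055. Its score was 0.24, −0.17 and −0.09 on the clozapine arrays, −0.07, −0.07 and 0.34 on the haloperidol arrays and 0.20, −0.19 and −0.19 on the control arrays. In each treatment 1 array stood high, and the 3 high arrays were the same 3 that the first principal component set against control 3.

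Psmb1, a beta subunit without catalytic activity, had values of 9.01, 8.91 and 8.62 in clozapine mice, 9.03, 9.03 and 9.29 in haloperidol mice and 8.94, 8.62 and 8.78 in control mice. The haloperidol arrays lay above all others, by 0.34 ± 0.14 over controls (1.26-fold; limma adjusted p = 0.530). A second tested probe set of Psmb1 did not show this: it had 8.48, 8.60 and 8.83 in clozapine mice, 8.92, 8.52 and 8.35 in haloperidol mice and 8.58, 8.74 and 8.78 in control mice. Its haloperidol difference was −0.11 and its correlation with the first over the 9 arrays was −0.66, so the Psmb1 direction depends on which probes are read.

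The 3 constitutive catalytic subunits did not separate the treatments. Psmb5 had values of 10.21, 9.96 and 9.66 in clozapine mice, 9.52, 10.11 and 10.37 in haloperidol mice and 10.25, 9.60 and 9.61 in control mice, ranges that overlap almost completely. Its haloperidol difference was 0.18 ± 0.27, with an interval of −0.43 to 0.80, and its clozapine difference 0.12 ± 0.27. Psmb6, the caspase-like subunit, had 9.12, 8.82 and 8.87 in clozapine mice, 8.72, 8.79 and 9.09 in haloperidol mice and 9.21, 8.86 and 8.36 in control mice. Control 1 was the highest and control 3 the lowest of all 9, and the differences were 0.13 ± 0.21 with clozapine and 0.056 ± 0.21 with haloperidol. Psmb7, the trypsin-like subunit, had 9.50, 9.17 and 9.24 in clozapine mice, 9.26, 8.83 and 9.49 in haloperidol mice and 9.29, 9.26 and 9.19 in control mice. It differed by 0.055 with clozapine and by −0.055 with haloperidol, each with a standard error of 0.17. Psmb2, Psmb3 and Psmb4 lay 0.24, 0.075 and 0.050 above controls with haloperidol, each within its standard error, and the Psmb2 value came to −0.0056 without haloperidol 3.

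The inducible catalytic subunits, which replace the constitutive ones after interferon, gave little signal. Psmb10 had values of 5.15, 5.11 and 5.20 with clozapine, 5.05, 4.99 and 5.14 with haloperidol and 5.56, 5.33 and 5.14 in controls. Control 1 and control 2 lay above every treated array, whereas control 3 lay among them. The haloperidol difference was −0.28 ± 0.11 (0.822-fold; limma adjusted p = 0.530; −0.18 without control 1) and the clozapine difference −0.19 ± 0.11. Psmb8 lay between 3.44 and 3.64 on all 9 arrays, just over the filter, and differed by 0.012 with clozapine and 0.025 with haloperidol. Of 13 tested genes of interferon response and MHC class I presentation, 7 lay above controls with clozapine and 6 with haloperidol, with medians of 0.0050 and −0.0070 and no unadjusted p under 0.05.

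In the ATPase ring, 4 of 6 genes lay above controls with either drug, with medians of 0.070 with clozapine and 0.18 with haloperidol. Psmc2 had values of 9.53, 9.53 and 9.41 in clozapine mice, 9.48, 9.66 and 10.01 in haloperidol mice and 9.49, 9.26 and 9.09 in control mice. Haloperidol 1 lay just under control 1, so the groups overlapped, and haloperidol 3 was highest. The haloperidol difference was 0.44 ± 0.15 (1.36-fold; limma adjusted p = 0.530) and came to 0.29 without haloperidol 3. Psmc6 had 10.21, 10.15 and 10.46 in clozapine mice, 10.67, 10.30 and 10.52 in haloperidol mice and 10.21, 10.14 and 10.32 in control mice. Haloperidol 2 alone overlapped the controls, and the difference was 0.27 ± 0.13, with an interval of −0.02 to 0.56.

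The other ATPases differed less. Psmc3 lay 0.21 ± 0.19 above controls with clozapine and 0.20 ± 0.19 with haloperidol (0.042 without haloperidol 3), Psmc5 0.097 and 0.15, and Psmc1 −0.16 and −0.097. Psmc4 read low, between 3.44 and 3.81, and its 3 haloperidol values of 3.69, 3.66 and 3.44 all lay below the control values of 3.73, 3.79 and 3.73. The difference was −0.15 ± 0.09 (limma adjusted p = 0.623). Among the 1864 dimmest tested probe sets, with averages up to 4.61, 58.0% lay wholly below controls in this way.

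Psmd14, the lid enzyme that removes ubiquitin chains from the substrate, had values of 9.27, 9.34 and 9.55 in clozapine mice, 9.56, 9.59 and 9.68 in haloperidol mice and 9.33, 9.32 and 9.37 in control mice. All 3 haloperidol arrays lay above all other arrays, and clozapine 3 alone came near them. The haloperidol difference was 0.27 ± 0.09 (1.20-fold; limma adjusted p = 0.530), with an interval of 0.06 to 0.48, and the clozapine difference 0.046 ± 0.09. With Psmd6, Psma6, Psma5 and Psmb1 it made up the 5 of 38 genes whose haloperidol arrays all lay above the controls, and only Psmc4 lay wholly below them. The shares were 2.29% and 19.4% of all tested probe sets and 4.35% and 2.84% of the brightest.

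The lid as a whole was split, with 5 of its 8 genes above controls with clozapine and 4 of 8 with haloperidol. Psmd13 lay 0.26 ± 0.17 above controls with haloperidol (0.11 without haloperidol 3), while Psmd7 and Psmd12 lay at −0.12 ± 0.16 and −0.15 ± 0.29 and Psmd8 at −0.0095. Psmd3 differed by 0.41 with clozapine and 0.34 with haloperidol, each with a standard error of 0.63. Its control values alone were 6.24, 5.28 and 4.24. Of the base, the ubiquitin receptor Psmd4 had 8.27, 7.84 and 8.13 in clozapine mice, 8.12, 8.28 and 8.36 in haloperidol mice and 8.67, 8.16 and 7.47 in control mice. Controls 1 and 3 were the highest and the lowest of the 9, and the differences were −0.020 and 0.15 with a standard error of 0.27. The scaffold Psmd1 lay at −0.16 ± 0.11 with clozapine and 0.0067 with haloperidol.

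The chaperones of base assembly had lower group means than controls with both drugs, and for Psmd5 and Psmd9 the sign depended on single arrays. Psmd10 had 6.46, 6.28 and 6.52 in clozapine mice, 6.52, 6.25 and 6.54 in haloperidol mice and 6.78, 6.63 and 6.52 in control mice. Controls 1 and 2 lay above all treated arrays, and the differences were −0.22 ± 0.12 with clozapine and −0.21 ± 0.12 with haloperidol (limma adjusted p = 0.608; −0.11 without haloperidol 2). Psmd5 and Psmd9 lay at −0.082 and −0.053 with clozapine and −0.052 and −0.089 with haloperidol, each within its standard error. Without control 1, Psmd5 came to 0.089 with clozapine and 0.12 with haloperidol. Psmd9 came to 0.030 with clozapine without clozapine 2, and to 0.019 with haloperidol without haloperidol 3. With Pomp and Psmg1, which help to build the core, and Psmg2, all 6 tested assembly chaperones lay below controls with clozapine (median −0.15) and 5 of 6 with haloperidol (median −0.14), none at an unadjusted p under 0.05. Pomp had the lowest p with clozapine, at a difference of −0.23.

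Of the activators, which open the core without ATP, Psme1 had 6.14, 5.72 and 5.90 in clozapine mice, 5.96, 6.06 and 6.73 in haloperidol mice and 6.05, 5.77 and 5.82 in control mice. Its haloperidol difference of 0.37 ± 0.21 (limma adjusted p = 0.611) rested on haloperidol 3, the array with pituitary transcripts, and came to 0.13 without it. Psme3, the nuclear activator, had 7.34, 6.81 and 7.12 in clozapine mice, 7.10, 6.62 and 7.40 in haloperidol mice and 7.23, 7.45 and 7.21 in control mice. Its low values were clozapine 2 and haloperidol 2, and the differences were −0.21 with clozapine and −0.26 with haloperidol, each with a standard error of 0.21. Without haloperidol 2 the haloperidol value of Psme3 came to −0.046. Psme4 lay 0.058 above controls with clozapine and 0.28 ± 0.16 with haloperidol (0.16 without haloperidol 1). The tested probe set shared by Psme2 and Psme2b lay 0.12 above controls with clozapine and 0.25 with haloperidol. All differences from controls are drawn with their intervals.

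**Figure D3:**
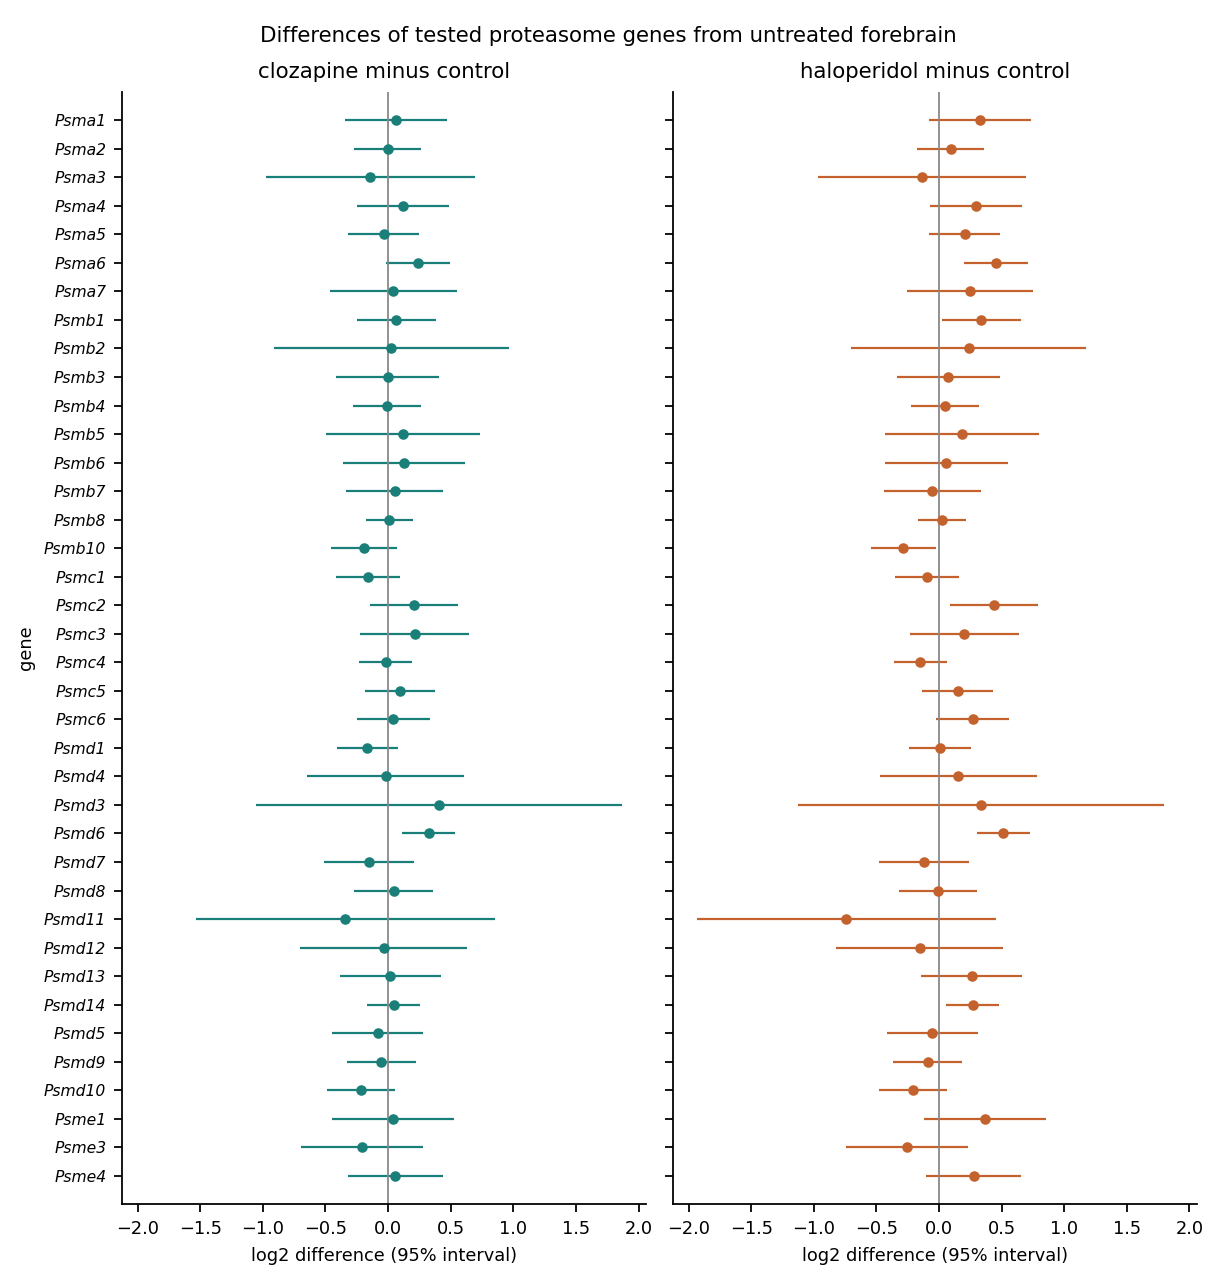
Log2 difference from control (horizontal axis) of 38 tested proteasome genes with clozapine (left) and haloperidol (right); points are differences of 3 against 3 arrays and lines are 95% limma intervals, not adjusted for the number of genes. The intervals of Psmd6, Psma6, Psmc2, Psmb1 and Psmd14 lie above 0 with haloperidol and that of Psmd6 with clozapine. That of Psmb10 lies below 0 with haloperidol, and the widest intervals belong to Psmd3 and Psmd11.

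Core and regulatory particle were then compared. With haloperidol 13 of 16 core genes lay above controls, with a median of 0.14, against 10 of 19 regulatory genes, with a median of 0.0067. With clozapine the counts were 10 of 16 core genes, with a median of 0.035, and 9 of 19 regulatory genes, with a median of −0.019. The core score was 0.04, −0.10 and −0.01 on the clozapine arrays, 0.07, −0.02 and 0.18 on the haloperidol arrays and 0.06, −0.14 and −0.08 on the control arrays. The regulatory score was 0.04, −0.12 and 0.04 on the clozapine arrays, 0.06, −0.09 and 0.13 on the haloperidol arrays and 0.07, −0.04 and −0.09 on the control arrays. For both particles the 3 groups overlapped, and control 1 lay among the haloperidol values.

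**Figure D4:**
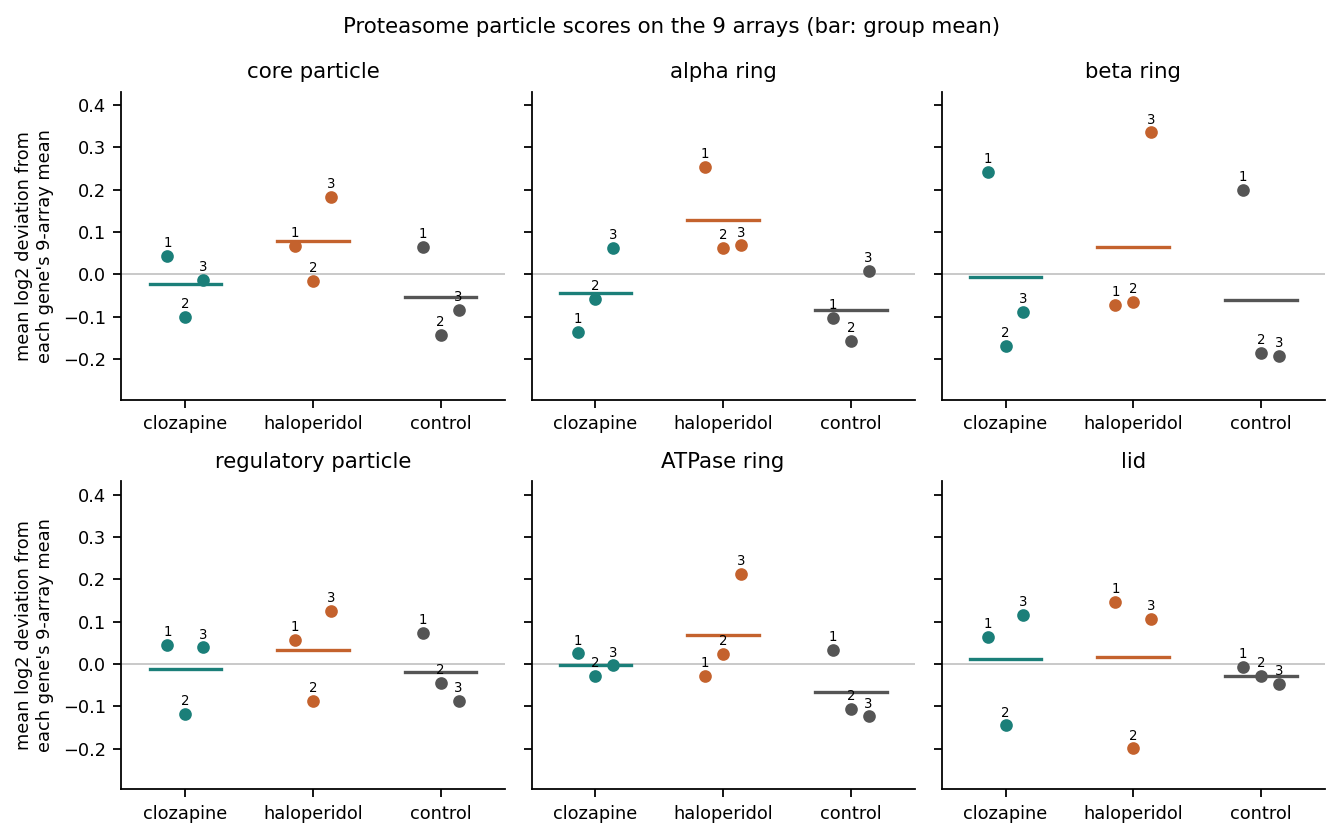
Mean log2 deviation of the genes of each particle or ring from their 9-array means (vertical axis) on each array of the clozapine, haloperidol and control mice; points are arrays, numbered by replicate, and bars are group means. The alpha ring is the panel in which the 3 haloperidol arrays lie above both other groups, and in the beta ring array 1 of clozapine, array 3 of haloperidol and array 1 of control stand high.

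The core minus regulatory score within each array was −0.001, 0.02 and −0.05 on the clozapine arrays, 0.01, 0.07 and 0.06 on the haloperidol arrays and −0.01, −0.10 and 0.003 on the control arrays. The haloperidol arrays lay above the control arrays, though haloperidol 1 and control 3 lay next to each other. The group means were −0.012 ± 0.037 with clozapine, 0.046 ± 0.033 with haloperidol and −0.034 ± 0.055 in controls (SD, n = 3 each). The gap between haloperidol and controls was 0.080. It came to 0.020 with the other tested probe set of Psmd11 in place of the brightest, to 0.049 with the 3 assembly chaperones left out, to 0.041 with the mean over the probe sets of each gene and to 0.048 without control 2. With the other Psmd11 probe set, or without the chaperones, the regulatory median came to 0.15, as high as the core median. The haloperidol regulatory median also turned to −0.041 when each array was centred on its median, to −0.014 after quantile normalisation and to −0.069 without control 3. The core median came to 0.038 without haloperidol 3, and to 0.087 without control 3.

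Set directly against haloperidol, clozapine gave lower values for 27 of the 38 genes, with a median of −0.061, while 56.4% of all tested probe sets lay higher with clozapine and their median was 0.026. The brightest probe sets leaned the way of the proteasome genes, with 45.5% higher with clozapine and a median of −0.018. All 7 alpha genes lay lower with clozapine, with a median of −0.21, as did 5 of 7 beta genes and 12 of 19 regulatory genes. These values share the haloperidol arrays with the comparisons above. Psmd14 alone had an unadjusted p under 0.05, at −0.22 ± 0.09 (limma adjusted p = 0.915), with an interval of −0.43 to −0.01. The clozapine arrays of Psmd14, Psmd6, Psma5, Psmb1 and Psmd1 all lay below the haloperidol arrays, 5 of 38 genes, and none lay wholly above, where the shares were 1.96% and 15.2% of all tested probe sets and 3.70% and 1.88% of the brightest. Psmd6 differed by −0.19 (interval −0.40 to 0.02), Psma6 by −0.21 (−0.47 to 0.04), Psmb1 by −0.27 (−0.59 to 0.04) and Psma5 by −0.24 (−0.52 to 0.04), so for these the 2 drugs were not shown to differ.

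Proteasome genes varied together only in part. The median correlation between 2 core genes over the 9 arrays was 0.21, between 2 regulatory genes 0.10 and between a core and a regulatory gene 0.18, against 0.0030 over all pairs of tested genes and 0.023 among pairs of the brightest genes. With group means removed, the medians were 0.15, 0.053 and 0.15. These pairs share the same 9 arrays and their quality. Psmb2 followed the mean of the other genes most closely (r = 0.89), followed by Psme1 (0.82), Psmb3 (0.75) and Psmd13 (0.73). The lowest values were those of Psmc4 (−0.81), Psmd11 (−0.56), Psma3 (−0.49), Psma7 (−0.41) and Psmd12 (−0.37). Psmc4 averaged 3.69, among the 1864 dimmest tested probe sets, of which 58.0% lay wholly below controls with haloperidol. The Psmd11 value is from its brightest probe set, which its other tested probe set did not follow (r = −0.51).

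**Figure D5:**
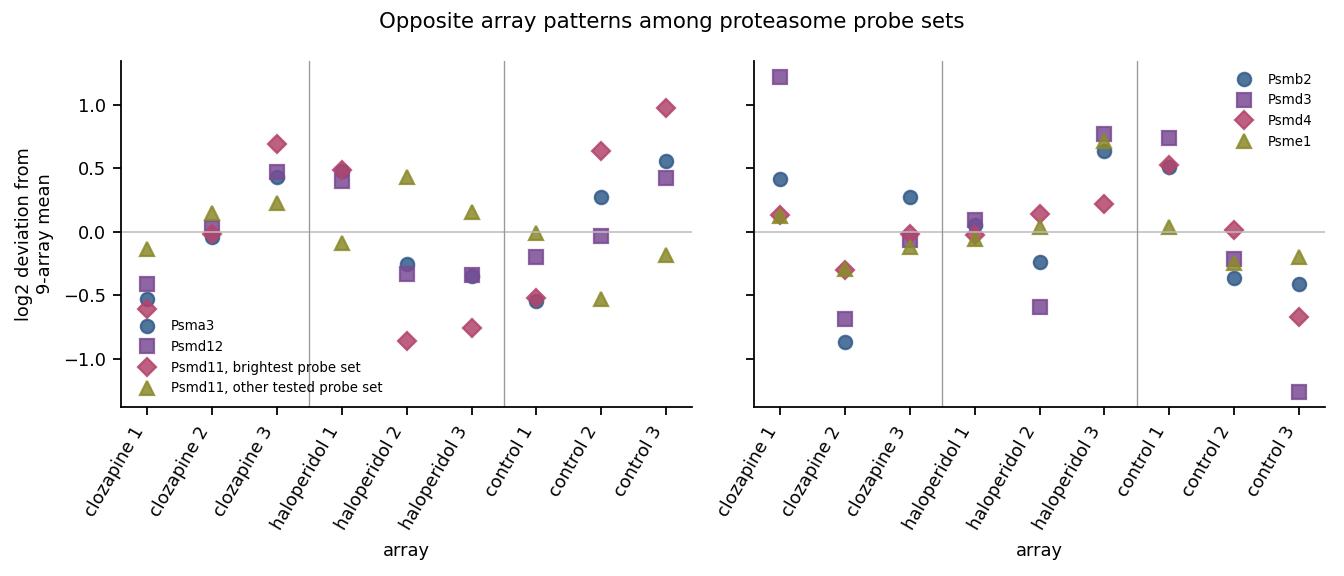
Log2 deviation from the 9-array mean (vertical axis) on each array (horizontal axis; vertical lines part clozapine, haloperidol and control) for probe sets of 2 opposite patterns, with both tested probe sets of Psmd11 on the left. Psma3, Psmd12 and the brightest Psmd11 probe set are low on clozapine 1, haloperidol 2, haloperidol 3 and control 1, and Psmd3 is high on clozapine 1, haloperidol 3 and control 1.

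Psma3, Psmd11 and Psmd12 shared an array pattern, drawn in the plot of opposite array patterns. Psmd11, a lid subunit, had 8.36, 8.95 and 9.66 in clozapine mice, 9.45, 8.11 and 8.21 in haloperidol mice and 8.45, 9.60 and 9.94 in control mice. Psma3 had 10.52, 11.01 and 11.48 in clozapine mice, 11.53, 10.80 and 10.70 in haloperidol mice and 10.50, 11.32 and 11.61 in control mice. Each was high and low within every treatment, and the 3 genes correlated at 0.93 (Psma3 with Psmd11), 0.92 (Psma3 with Psmd12) and 0.90 (Psmd11 with Psmd12). These pairs were picked from among the members and have no background beside them. The pattern was not particular to proteasome genes. The astrocyte marker Gja1 was also lowest on clozapine 1, haloperidol 2, haloperidol 3 and control 1, at 11.42, 11.58, 11.27 and 11.49. On the other arrays Gja1 lay between 11.73 and 12.11. Psmd3 and Psmb2 (r = 0.84) had the opposite pattern, with r = −0.56 between Psmd3 and Psmd11. In Psmd3 the 3 highest arrays and the lowest array were those that the first principal component set against each other, whereas Psmd11 was lowest on haloperidol 2.

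The second tested probe set of Psmd11 did not follow the first (r = −0.51). It had 8.01, 8.29 and 8.37 in clozapine mice, 8.05, 8.57 and 8.29 in haloperidol mice and 8.13, 7.61 and 7.96 in control mice. Its haloperidol difference was 0.41 (limma adjusted p = 0.532) and its clozapine difference 0.32, where the brightest probe set gave −0.74 ± 0.52 and −0.34 ± 0.52. In 4 of the 5 genes with over 1 tested probe set, Psmb1, Psmb4, Psmc5 and Psmd11, the probe sets differed in the sign of the haloperidol difference.

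The brightest Psmb4 probe set had 10.05, 9.91 and 9.64 in clozapine mice, 9.91, 9.95 and 9.91 in haloperidol mice and 9.93, 9.73 and 9.96 in control mice, so the groups overlapped. Its second, near the filter, had 3.57, 3.75 and 3.58 in clozapine mice, 3.48, 3.50 and 3.30 in haloperidol mice and 3.61, 3.66 and 3.65 in control mice. The second lay wholly below controls with haloperidol, at −0.21 ± 0.09 (limma adjusted p = 0.530), where the brightest gave 0.050, and the 2 correlated at −0.13. The brightest Psmc5 probe set had 7.20, 7.24 and 7.14 in clozapine mice, 6.99, 7.32 and 7.43 in haloperidol mice and 7.13, 6.99 and 7.17 in control mice. Its second had 4.17, 4.36 and 4.23 in clozapine mice, 4.13, 4.15 and 3.91 in haloperidol mice and 4.26, 4.41 and 4.30 in control mice. It too lay wholly below controls with haloperidol, at −0.26 ± 0.10 (limma adjusted p = 0.530), where the brightest gave 0.15, and the correlation was −0.59. Both second probe sets were among the 1864 dimmest, where lower haloperidol values were the rule.

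Psmc3 was the gene whose probe sets kept 1 sign with haloperidol. Its brightest had 9.20, 8.85 and 8.88 in clozapine mice, 8.75, 8.87 and 9.29 in haloperidol mice and 9.02, 8.80 and 8.49 in control mice. Its second had 8.68, 8.46 and 8.7 in clozapine mice, 8.7, 8.77 and 8.96 in haloperidol mice and 8.90, 8.62 and 8.62 in control mice. In both, each drug group overlapped the controls, and the second gave a haloperidol difference of 0.098 ± 0.12. In the second all clozapine arrays lay below all haloperidol arrays, although clozapine 3 and haloperidol 1 were equal to 2 decimals. The third had 6.70, 6.75 and 6.71 in clozapine mice, 6.91, 7.01 and 6.73 in haloperidol mice and 6.71, 6.64 and 6.73 in control mice. Its haloperidol arrays lay above the controls, by 0.19 ± 0.09 (limma adjusted p = 0.540), although haloperidol 3 and control 3 were equal to 2 decimals. With clozapine the differences of the 3 probe sets were 0.21, −0.099 and 0.027 in this order, so the sign was not kept. The 3 correlated between −0.17 and 0.58, and which transcripts each probe set reads was not tested.

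Around the proteasome itself, most genes that deliver substrates had group means above controls with both drugs, and 1, Bag6, had an unadjusted p under 0.05. Of 10 tested genes for delivery and unfolding, 8 lay above controls with clozapine (median 0.072) and 9 with haloperidol (median 0.14). The exception with haloperidol was Bag6, a chaperone of mislocalised proteins, at 6.83, 6.76 and 6.52 in haloperidol mice, against 6.88, 7.14 and 7.16 in control mice. It lay wholly below controls, as 19.4% of all tested probe sets did, with a difference of −0.35 (limma adjusted p = 0.530). Lower values with haloperidol at an unadjusted p under 0.05 were found in 7.07% of all tested probe sets. Of all tested probe sets 49.5% lay above 0 with clozapine and 46.4% with haloperidol, and of the brightest 53.7% and 59.4%. The score of the 10 delivery genes was 0.08, 0.02 and −0.07 on the clozapine arrays and −0.04, −0.02 and 0.18 on the haloperidol arrays. It was 0.06, −0.05 and −0.15 on the control arrays, so the groups overlapped. Of the 3 other subunits and partners tested (Sem1, Uchl5 and the deubiquitinase Usp14), 1 lay above controls with each drug, with medians of −0.14 with clozapine and −0.0034 with haloperidol.

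The NFE2L1 and NFE2L2 genes with their cofactors and targets gave 5 of 8 above controls with clozapine (median 0.019) and 4 of 8 with haloperidol (median −0.024), none at an unadjusted p under 0.05. Nfe2l1 itself had 7.89, 7.27 and 7.76 in clozapine mice, 7.38, 7.03 and 7.71 in haloperidol mice and 7.95, 7.71 and 6.71 in control mice, so the controls spanned more than both drug groups. The 5 promoters with the antioxidant-type motif belonged to genes with haloperidol differences of 0.18 (Psmb5), 0.056 (Psmb6), 0.27 (Psmc6), −0.089 (Psmd9) and −0.15 (Psmd12). The 17 genes of neddylation and the COP9 signalosome, a complex related to the lid, gave 11 above controls with each drug, with medians of 0.049 with clozapine and 0.16 with haloperidol. Among them Cops2, Cul1 and Cops5 lay higher with haloperidol at an unadjusted p under 0.05, by 0.52, 0.36 and 0.26. That is 3 of 17, where 2.05% of all tested probe sets and 3.6% of the brightest did so. The score of the 17 genes was 0.04, 0.03 and 0.13 on the haloperidol arrays and 0.04, −0.09 and −0.14 on the control arrays. These 2 groups overlapped.

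Cell type markers also differed between arrays. The 5 tested neuron markers had a score of 0.30, 0.20 and −0.35 on the clozapine arrays, −0.26, 0.27 and 0.39 on the haloperidol arrays and 0.39, −0.02 and −0.92 on the control arrays. All 5 lay above controls with haloperidol, with a median of 0.28, and control 3 was far the lowest array. The 5 tested forebrain neuron markers scored 0.27, −0.11 and 0.09 on the clozapine arrays and 0.21, 0.01 and 0.14 on the haloperidol arrays. On the control arrays they scored 0.20, −0.22 and −0.59. Of these 5, 3 lay above controls with clozapine (median 0.086) and 4 with haloperidol (median 0.17). The 4 tested oligodendrocyte markers all lay below controls with haloperidol (median −0.094), 3 of 4 lay above with clozapine (median 0.12) and all 4 were higher with clozapine than with haloperidol (median 0.21), Mog alone at an unadjusted p under 0.05. Their score lay between −0.02 and 0.17 on the clozapine arrays, −0.27 and 0.00091 on the haloperidol arrays and −0.23 and 0.15 on the control arrays. The 5 endothelial markers all lay below controls with haloperidol (median −0.27), and 3 of 5 did with clozapine (median −0.096). Their score lay between −0.25 and 0.07 on the clozapine arrays, −0.24 and 0.09 on the haloperidol arrays and 0.01 and 0.35 on the control arrays. Of the 4 astrocyte markers, 1 lay above controls with each drug, with medians of −0.067 with clozapine and −0.13 with haloperidol, and their score was highest on control 3 (0.35). The score of the 6 tested microglia markers stayed between −0.17 and 0.14 on all arrays. The part of these markers in the proteasome values was not tested.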

How the data were processed

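Total RNA from 9 forebrains was hybridised to Affymetrix U74Av2 arrays without pooling, per the series text, and groups and replicate numbers came from the sample titles. The authors deposited log2 values from GCRMA (named in the submitters' processing notes), which corrects probe background, normalises arrays and summarises probe sets; no version is given in the sources used here. Array medians lay between 4.02 and 4.21. Of 12488 probe sets, 66 controls were left out, and 7453 with a 9-array mean above the 40th percentile were tested with limma 3.58.1 in R 4.3.3 (lmFit, eBayes, 2-sided, 1 mean per treatment, Benjamini-Hochberg over all 7453), a step tested on simulated data. GCRMA holds dim probe sets near a floor, so small differences there can come from its background step.

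For each gene, the probe set of highest 9-array mean was used. Scores are means of deviations from each gene's 9-array mean, and no test was made on them. Named with every array value are members with unadjusted p under 0.05 and the 2 core and 2 regulatory members lowest in p per comparison. So are members chosen for their role (catalytic, Psmb10, Psmd4, Psmd14, Psme1, Psme3) and genes with several tested probe sets. Psmb8 and Psmb9 are given by range and Psme4 by its differences. A few further values, such as those of Psmc6, Psma7, Bag6 and Nfe2l1, were added after their values were seen. The members, lists and tests were chosen with earlier results of these data known. Animals were separate, and their number limits the precision.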

Additional observations from a re-analysis of the deposited data

How the results depend on the processing

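Under the 26 alternatives tried, the number of proteasome genes past an adjusted p of 0.05 was 0 in every comparison by limma, also at a threshold of 0.10; the unadjusted counts moved. The shares of all tested probe sets with such a p are not given for the alternatives or for arrays left out in turn. The counts therefore cannot be set against a background. Genes higher with haloperidol than in controls numbered 5, but 3 with array medians centred, 11 with array weights (a fit that did not fully converge), 2 without the 3 arrays on one side of the first principal component and 3 without control 3 and haloperidol 3. Array weights were 13.6 for control 2 and 0.33 to 1.21 for the other arrays, so counts from that fit rest largely on 1 control array. Genes lower with haloperidol numbered 1, but 2 after centring or quantile normalisation, 3 with array weights and 0 with a filter at the 60th percentile, without those 3 arrays or with only the 6 arrays compared. Genes higher with clozapine than in controls numbered 1, but 2 with no filter or with 6 arrays, 3 with array weights and 0 after centring or without the 3 arrays. Genes lower with clozapine numbered 0, but 1 after centring or without control 3 and haloperidol 3, and 2 after quantile normalisation or with array weights. For clozapine against haloperidol, 1 gene was higher and 2 lower with no filter, where the filter gave 0 and 1, and 0 were lower with a filter at the 60th percentile, centring, a robust prior with an intensity trend, array weights or either set of arrays left out.

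The haloperidol regulatory median of 0.0067 came to 0.15 with the assembly chaperones left out and to 0.15 with the other Psmd11 probe set, which also took the core minus regulatory gap to 0.020. The clozapine minus haloperidol core median of −0.088 came to −0.19 without probe sets whose names carry a suffix. These causes were not tested. The alternatives with chaperones left out, with the other Psmd11 probe set, with members averaging at least 5 and without control 3 and haloperidol 3 together were chosen after seeing the data. Centring also took the share of all tested probe sets above 0 to 36.1% for clozapine, 38.2% for haloperidol and 59.3% for clozapine against haloperidol, with medians of −0.036, −0.066 and 0.038.

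Leaving out each array in turn gave 1 to 2 genes higher and 0 to 1 lower with clozapine, 2 to 8 higher and 0 to 1 lower with haloperidol, and 0 to 3 lower with clozapine than with haloperidol. The haloperidol count was 2 without haloperidol 3 or control 2, 3 without control 3 and 8 without haloperidol 2. The haloperidol medians ran from 0.038 (without haloperidol 3) to 0.25 (without control 1) for the core, from −0.069 (without control 3) to 0.12 (without control 1) for the regulatory particle and from 0.15 to 0.28 for the alpha ring. The clozapine minus haloperidol count was 2 without clozapine 3 and 3 without haloperidol 2.

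Same-numbered arrays of different treatments did not consistently deviate together (correlations of −0.60 to 0.70, median −0.23, over 9 pairs). Differently numbered arrays gave −0.66 to 0.66, with a median of 0.036, over 18 pairs. Pairing by number was thus not shown, and so few correlations that share arrays cannot settle it. With the replicate number as a block, 0 genes were lower with haloperidol, and the other counts stayed within 1.5 times of those without it. With 3 arrays per treatment and GCRMA values near the floor for dim genes, small differences in Psmb8, Psmb9, Psmc4 and Psmd2 could not be resolved.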
